A study of Mus musculus with 2 samples.

Results

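Type 1 conventional dendritic cells (cDC1) were examined in a pair of single-cell RNA sequencing libraries of the mouse prostate, 1 made from a tumour and 1 from normal tissue beside a tumour (normal adjacent). A barcode counted as a cDC1 when it had at least 2 UMIs (unique molecular identifiers, each a counted molecule) of Xcr1 and Clec9a together and at least 1% of its UMIs from the MHC class II genes H2-Aa, H2-Ab1 and Cd74. It also had under 0.2% of UMIs from C1qa, C1qb and C1qc (macrophages), at most 1 UMI of Fscn1 (migratory dendritic cells), of Cd79a (B cells) and of the Cd3 chains (T cells), at least 200 detected genes and at most 20% mitochondrial UMIs. The rule was met by 200 of 13977 cells, 129 of 7768 in the tumour library and 71 of 6209 in the normal adjacent library. They are set against 149 tumour and 88 normal adjacent Cd209a dendritic cells, which had at least 2 UMIs of Cd209a, none of Xcr1 or Clec9a and otherwise the same limits.

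Per the labels, each library was loaded in 1 channel with sorted CD45+ and CD45- cells, described as CD45+ and epithelial cells, so sorting and loading set the share of any immune cell among all cells. Both tissues were digested with collagenase type I at 1 mg/ml for 45 min and then with 2.5% trypsin. The title of the normal adjacent sample calls it healthy. The sources used here give no strain, genotype, tumour model, age or number of animals. With 1 library per group there were no replicates, so no test between the tissues could be made, and the 95% intervals given in parentheses hold counting error alone. A cDC1 held a median of 16242 UMIs in the tumour library (942 to 55351) and 18241 in the normal adjacent library (1685 to 58086), and the median numbers of detected genes were 3168 and 3341. The libraries shared 18 barcodes, and 0 of the cDC1 were among them.

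cDC1 are the dendritic cells best known for taking up dead cells and presenting their antigens on MHC class I to CD8 T cells, which is called cross-presentation. Their development rests on the transcription factors Irf8 and Batf3 and on the receptor Flt3. Xcr1 is the receptor of a chemokine made by NK cells and CD8 T cells, and Clec9a is a lectin that binds actin filaments laid bare in dead cells. In tumours cDC1 are known as a source of interleukin 12 and of chemokines that attract T cells, and maturing cells gain Ccr7, the receptor that guides them to lymph nodes.

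Both genes of the gate hold, before their start sites, a short form of a composite motif at which Batf3-type AP-1 factors and Irf factors can bind together. The short form has only the letters TGA of the AP-1 motif TGANTCA. These promoters are shown because both genes define the cells. The windows run from 250 bases before to 50 after the gene start (RefSeq, GRCm38.p6), Clec9a at chr6:129408612-129408911 on the plus strand and Xcr1 at chr9:123861980-123862279 on the minus strand. Capitals mark the match to TTTC and TGA with any 4 bases between them, which in Xcr1 is read on the opposite strand.
Clec9a: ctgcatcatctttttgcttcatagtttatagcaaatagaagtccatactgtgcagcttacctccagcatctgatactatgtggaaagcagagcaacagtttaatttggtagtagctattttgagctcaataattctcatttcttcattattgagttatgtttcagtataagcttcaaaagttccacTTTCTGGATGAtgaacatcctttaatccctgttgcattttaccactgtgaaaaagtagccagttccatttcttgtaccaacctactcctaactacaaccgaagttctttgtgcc
Xcr1: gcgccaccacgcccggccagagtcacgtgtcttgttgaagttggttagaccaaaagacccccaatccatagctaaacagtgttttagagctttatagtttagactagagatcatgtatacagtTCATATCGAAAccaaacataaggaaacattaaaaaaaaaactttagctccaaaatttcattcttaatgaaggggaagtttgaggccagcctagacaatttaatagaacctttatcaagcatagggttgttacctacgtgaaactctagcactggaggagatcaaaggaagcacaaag
The match begins 64 bases before the start in Clec9a and 127 bases before it in Xcr1. Searched on both strands, this short form was found in 4.56% of 32851 promoter windows and in 2 of 23 windows, those of Gcsam and Hepacam2, that belong to 18 other cDC1 genes. The ETS-IRF motif, GGAA and GAAA with any 2 bases between, was in 2.72% of all windows and in neither gate gene, the AP-1 motif TGANTCA in 7.81% and neither, and the interferon response motif, GAAA and GAAA with any 2 bases between, in 3.44% and neither. A match is a run of letters and was not tested as a binding site.

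The cells were few in gate UMIs but mostly carried both transcripts. Xcr1 and Clec9a were both detected in 98 tumour and 51 normal adjacent cDC1, Xcr1 alone in 13 and 11, and Clec9a alone in 18 and 9. The median number of gate UMIs was 7 in tumour and 5 in normal adjacent cells. Around the threshold, Naaa, a lysosomal amidase typical of cDC1 that the gate did not use, was at 209 and 147 CPM (counts per 1000000 UMIs of the summed cells) in class II-rich cells with 1 gate UMI, just outside. It was at 369 and 268 CPM at 2 UMIs, just inside, and at 699 and 631 CPM at 4 or more, with the tumour library first in each pair. Cd209a went the other way, at 266 and 280 CPM in cells with 1 gate UMI, 91.5 and 268 CPM at 2 UMIs and 22.8 and 0 CPM at 4 or more. Summed, the 12 normal adjacent cells with exactly 2 gate UMIs thus had Cd209a at a level close to that of cells outside the gate. At most 6 of them held any, since the normal adjacent cDC1 had 61 Cd209a UMIs in 6 cells, 32 of them in 1 cell.

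**Figure D1:**
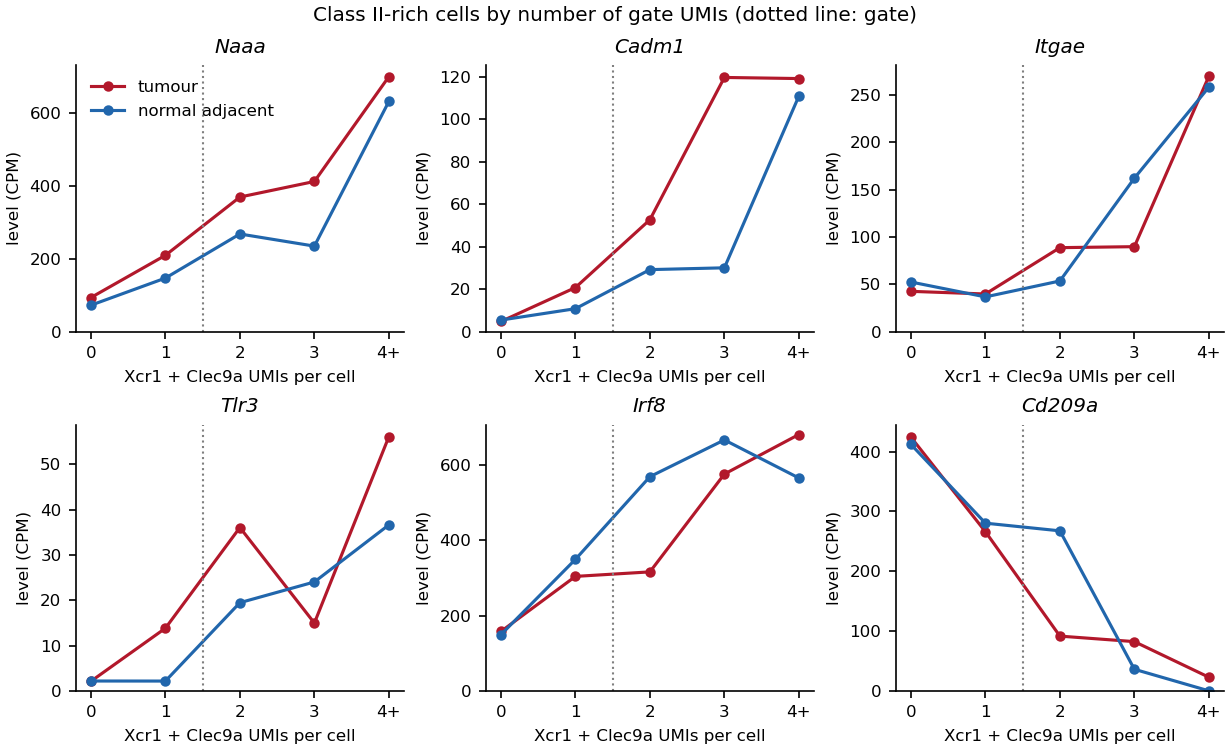
Level (CPM, vertical axes) of 6 genes in class II-rich cells that met the other limits, by the number of Xcr1 and Clec9a UMIs per cell (horizontal axes), in the tumour (red) and normal adjacent (blue) libraries. Points are sums over cells with no intervals drawn, and the dotted line is the gate. Naaa, Itgae and Tlr3 are highest at 4 or more UMIs in both libraries, where Cd209a is at 22.8 and 0 CPM. Cadm1 is at 119.7 CPM at 3 UMIs and 119.2 CPM at 4 or more in the tumour library.

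Genes that the gate did not use separated the cells in the direction of the label. Of 23 cDC1 genes outside the gate, 19 were at least 2-fold higher than in Cd209a dendritic cells in both libraries and 0 were lower, where 3.84% of 7090 genes were that much higher and 4.95% lower. The median log2 ratio over the 23 was 2.89 in the tumour and 2.66 in the normal adjacent library, against 0.05 and 0.07 over all genes. The 4 short of 2-fold in both libraries were Id2, Mycl, Nfil3 and Cbfa2t3. The gate chose both sets of cells from these same counts, so these ratios describe the sets and are not a test.

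Among the factors that build the lineage, Irf8 stood out. It had 615 CPM in tumour cDC1, against 83.2 CPM in tumour Cd209a dendritic cells, a ratio of 7.39 (6.27 to 8.76). In the normal adjacent library Irf8 had 579 CPM in cDC1 and 91.4 CPM in Cd209a dendritic cells, a ratio of 6.33 (5.18 to 7.80). Batf3, its partner, was 2.50-fold higher in cDC1 (1.86 to 3.40) at 79.3 and 31.7 CPM in the tumour library, and 2.13-fold (1.44 to 3.19) at 67.2 and 31.6 CPM in the normal adjacent one. The receptor Flt3, which all conventional dendritic cells use, differed less, with ratios of 1.97 (1.62 to 2.41) and 1.79 (1.38 to 2.32), and was at 152 CPM in tumour cDC1 and 137 CPM in normal adjacent cDC1. Zbtb46 and Itgax, shared by conventional dendritic cells, were somewhat lower in cDC1, at 0.628 and 0.632 times the level of Cd209a dendritic cells in the tumour library. On the pan-dendritic list as a whole the median log2 ratio was -0.07 in both libraries, and Cst3, the protease inhibitor cystatin C, was the only 1 of 10 genes past 2-fold, at 4.17 (4.09 to 4.25) and 3.74 (3.66 to 3.83). Irf4 and Zeb2, factors of the type 2 lineage, were lower in cDC1. Irf4 was 6.76-fold lower in the tumour and 9.17-fold lower in the normal adjacent library, and Zeb2 was 6.27-fold (5.02 to 7.91) and 10.7-fold (7.23 to 16.4) lower.

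The 12 genes that set cDC1 most clearly above Cd209a dendritic cells were Cadm1, Cd36, Fcrla, P3h2, Agpat3, Cd81, Ppt1, Gpr141b, Lima1, Rab7b, Igf2r and Itgae. Several act at the surface. The adhesion molecule Cadm1 was at 108 CPM in tumour cDC1 and 88.6 CPM in normal adjacent cDC1, and was 34.7-fold (15.7 to 95.5) and 107-fold (18.8 to 4244) higher than in Cd209a dendritic cells, where it had 6 and 1 UMIs. Itgae, the integrin chain CD103 that binds E-cadherin on epithelium, was at 229 and 216 CPM, with ratios of 13.4 (9.39 to 19.6) and 7.63 (5.34 to 11.2). The scavenger receptor Cd36 was 30.3-fold (16.3 to 63.8) and 45.9-fold (15.4 to 225) higher, and the tetraspanin Cd81 11.2-fold (8.98 to 14.0) and 27.2-fold (17.4 to 44.8) higher. Others work in endosomes and lysosomes. Ppt1, which removes palmitate from proteins, was at 548 and 521 CPM in cDC1 and 57.2 and 50.7 CPM in Cd209a dendritic cells, ratios of 9.58 and 10.3. Rab7b, a late endosome GTPase, was 7.49-fold and 18.6-fold higher, and Igf2r, which sorts enzymes to lysosomes, 13.2-fold and 22.6-fold. P3h2, a prolyl hydroxylase, had no UMI in Cd209a dendritic cells and was at least 15.7-fold and at least 15.4-fold higher, taking a floor of 3 counts per library. Fcrla, an Fc receptor-like gene, had 3 and 1 UMIs in Cd209a dendritic cells, with ratios of 44.2 (14.8 to 216) and 86.2 (15.1 to 3438). Not all 12 were particular to cDC1. In migratory dendritic cells (at least 2 UMIs of Fscn1 and a UMI of Ccr7) Lima1 was at 178 and 302 CPM, against 90.2 and 50.9 CPM in cDC1. Cd81 was at 235 and 433 CPM there, against 511 and 452 CPM in cDC1. The rest of the 12 were also lower in migratory cells than in cDC1 in both libraries.

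**Figure D2:**
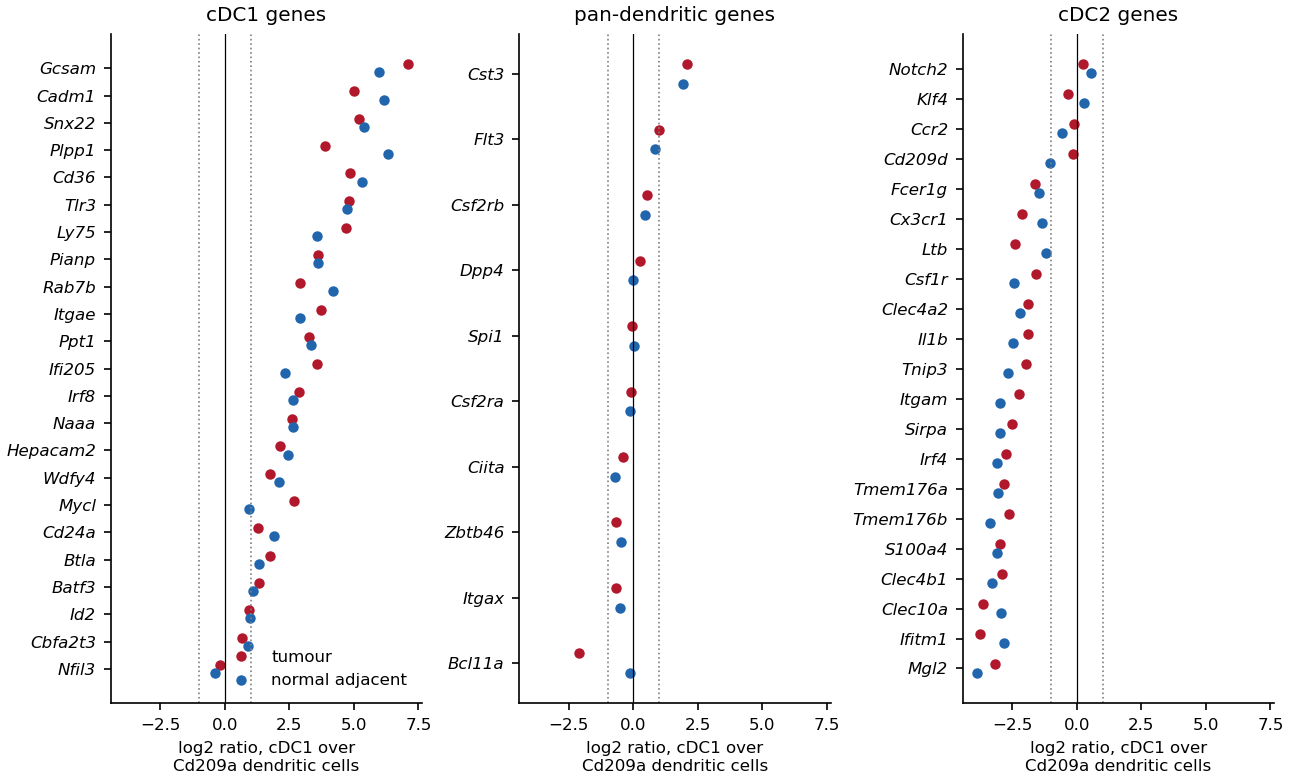
log2 ratio of levels (CPM with 0.5 UMIs added, horizontal axes) in cDC1 over Cd209a dendritic cells for each measured gene of 3 lists, in the tumour (red) and normal adjacent (blue) libraries. Dotted lines are 2-fold. 19 of 23 cDC1 genes lie beyond 2-fold higher and 17 of 21 cDC2 genes beyond 2-fold lower in both libraries, while only Cst3 of the 10 pan-dendritic genes does.

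Genes of cross-presentation followed the set in part. Wdfy4, needed for cross-presentation of cell-borne antigen, was at 432 CPM in tumour cDC1 and 328 CPM in normal adjacent cDC1, against 128 and 77.3 CPM in Cd209a dendritic cells, ratios of 3.36 (2.92 to 3.88) and 4.25 (3.39 to 5.37). Rab43, a trafficking GTPase, had ratios of 2.12 (1.77 to 2.54) and 1.78 (1.37 to 2.32). Sec22b, a vesicle fusion protein, had ratios whose intervals included 1, at 0.945 (0.653 to 1.37) and 1.12 (0.700 to 1.82). Of 14 measured cross-presentation genes 2 were past 2-fold higher in both libraries and 3 lower, beside 3.84% and 4.95% of all genes. Among those lower was Cybb, the catalytic chain of the phagocyte oxidase, at 5.82-fold and 4.12-fold. Of 15 genes of MHC class I presentation 3 were past 2-fold higher, the immunoproteasome subunit Psmb9 (3.15-fold and 2.95-fold), the peptide transporter Tap2 (2.28-fold and 2.66-fold) and the peptide editor Tapbpl. The class I heavy chain H2-K1 was at 0.910 and 1.00 times the level of Cd209a dendritic cells. Of 11 class II genes outside the gate 4 were past 2-fold lower in cDC1, among them the protease Ctss (2.52-fold and 2.59-fold) and the thiol reductase Ifi30 (2.54-fold and 2.62-fold), both of which prepare antigen for class II.

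Several receptors and sensors also set cDC1 apart. Tlr3, the endosomal sensor of double-stranded RNA, had 50.3 CPM in tumour cDC1 and 32.5 CPM in normal adjacent cDC1, and 3 and 1 UMIs in Cd209a dendritic cells, with ratios of 32.2 (10.8 to 159) and 39.1 (6.66 to 1578). Cxcr3, the receptor of the interferon-induced chemokines Cxcl9 and Cxcl10, was at 35.8 and 20.7 CPM in cDC1, against 2.08 and 1.66 CPM in Cd209a dendritic cells. Those are ratios of 17.2 (6.46 to 64.7) and 12.4 (3.14 to 108), and T cells had 35.2 and 38.4 CPM. Havcr2, the checkpoint receptor TIM-3, was 3.32-fold (2.67 to 4.18) and 2.96-fold (2.30 to 3.83) higher in cDC1, and Btla, another inhibitory receptor, 3.34-fold and 2.49-fold. Ccr2, which brings cells in from blood, was present at 204 CPM in tumour cDC1 and 167 CPM in normal adjacent cDC1, with ratios to Cd209a dendritic cells of 0.929 (0.812 to 1.06) and 0.674 (0.564 to 0.803).

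Genes of the type 2 lineage and of inflammation were lower in cDC1. Of 21 measured cDC2 genes 17 were past 2-fold lower in both libraries, where 4.95% of 7090 genes were that much lower and 3.84% higher. The median log2 ratio over the 21 was -2.25 in the tumour and -2.66 in the normal adjacent library, against 0.05 and 0.07 over all genes. The lectin Mgl2 was 8.94-fold (7.53 to 10.7) lower in the tumour and 14.8-fold (10.7 to 21.1) lower in the normal adjacent library, and the related Clec10a 12.4-fold (9.89 to 15.9) and 7.74-fold (5.80 to 10.5). S100a4, a calcium-binding protein, was at 261 and 228 CPM in cDC1, against 2034 and 1973 CPM in Cd209a dendritic cells. The other 9 genes that stood most clearly below were Ifitm6, Tmem176a, Ifitm1, Pou2f2, Dab2, Clec4b1, Tmem176b, Mcemp1 and Zeb2, between 6.12-fold and 13.8-fold lower. Of 13 NF-kappaB response genes 6 were past 2-fold lower and 0 higher, beside the same shares of all genes. The medians over the 13 were -0.59 and -1.18, and the subunit Rel was 2.14-fold and 2.97-fold lower. Il1b, an inflammatory cytokine, was 3.74-fold and 5.50-fold lower in cDC1.

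Within the cDC1 a minority carried the genes of maturation. Il12b, the shared chain of interleukins 12 and 23, was detected in 26 of 129 tumour cDC1, which is 20.2% (13.6 to 28.1), and in 7 of 71 normal adjacent cDC1, 9.86% (4.06 to 19.3). Thinned to 2000 UMIs per cell, which left out 3 tumour and 1 normal adjacent cells, the shares were 11.1% and 4.29%. In T cells, which should lack it, 0.676% and 0.383% had a UMI when thinned and 1.13% and 1.03% unthinned, at median depths of 5316 and 5999.5 UMIs. Its level was 253 CPM in tumour cDC1 and 169.8 CPM in normal adjacent cDC1. A single cell held 22.4% of the tumour and 57.4% of the normal adjacent UMIs of Il12b. In Cd209a dendritic cells it had 1.56 and 29.9 CPM, so cDC1 were 162-fold (55.2 to 788) higher on 3 UMIs in the tumour library and 5.67-fold (3.98 to 8.30) higher in the normal adjacent library. Migratory dendritic cells, 58 and 40 cells with at least 2 UMIs of Fscn1 and a UMI of Ccr7, had more still, with a UMI of Il12b in 55.2% and 57.5%, and in 45.6% and 43.6% when thinned.

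Summed, cells with Il12b also held more Ccr7, Ccl22, Relb and Cd40 than those without. In the tumour library Ccr7 was at 611 CPM in cDC1 with Il12b and 73.5 CPM in those without, and in the normal adjacent library at 1355 and 113 CPM. The T cell attractant Ccl22 was at 684 CPM with Il12b and 30.4 CPM without in the tumour, and at 275 and 28.8 CPM in normal adjacent tissue. The NF-kappaB subunit Relb was at 105 and 51.6 CPM in the tumour and 239 and 41.9 CPM in normal adjacent tissue. The costimulatory receptor Cd40 was at 78.6 and 19.4 CPM in the tumour and 87.0 and 14.8 CPM in normal adjacent tissue. In both libraries all 4 genes were higher with Il12b by these sums, which rest on part of the cells. Of the 26 tumour cells with Il12b only 12 held Ccr7. Those 12 had 358 of the 383 Ccl22, 46 of the 59 Relb and 16 of the 44 Cd40 UMIs. In normal adjacent tissue 4 of the 7 cells with Il12b held Ccr7. Those 4 had 36 of the 38 Ccl22, 27 of the 33 Relb and 9 of the 12 Cd40 UMIs. The identity genes were less uniform. Naaa was at 629 CPM with Il12b and 627 CPM without in the tumour, and at 399 and 542 CPM in normal adjacent tissue, and Irf8 at 614 and 615 CPM in the tumour and 732 and 561 CPM in normal adjacent tissue. Split by Ccr7 instead, with at least 3 UMIs of Ccr7, 18 tumour and 10 normal adjacent cells had Naaa at 399 CPM and 290.0 CPM, against 671 and 558 CPM in the other cDC1, and Clec9a at 142 and 82.0 CPM, against 203 and 178 CPM. Xcr1 ran the other way, at 268 and 303 CPM, against 244 and 162 CPM. These cells were grouped by their own counts, so the values are descriptions.

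Cells also differed by which gate transcript they held. The 13 tumour and 11 normal adjacent cells with Xcr1 alone had Ccr7 at 812 and 1087 CPM, and the 98 and 51 cells with both transcripts had it at 146 and 129.9 CPM. With Clec9a alone Ccr7 was at 211 CPM in the tumour, above the cells with both, and at 55.1 CPM in normal adjacent tissue, below them. Il12b was at 946 and 794 CPM in cells with Xcr1 alone and 215 and 94.7 CPM in those with both, and had no UMI in the 18 and 9 cells with Clec9a alone. In the normal adjacent library 1 cell held 132 of the 133 Il12b UMIs of those with Xcr1 alone, and the cells with both held 97. Ccl22 was at 1389.7 and 209 CPM with Xcr1 alone, 97.1 and 36.1 CPM with both and 4.06 and 6.12 CPM with Clec9a alone. The normal adjacent levels with Xcr1 alone were narrowly based, for Il12b on the 1 cell above and for Ccl22 on 35 UMIs. A single cell held 20 of the 73 normal adjacent UMIs of Ccl22. Over all tumour cDC1, 5 cells held 72.1% of the Ccl22, 71.5% of the Il12b and 58.3% of the Ccr7 UMIs. Over all normal adjacent cDC1, 5 cells held 89.8% of the Ccr7 UMIs. By summed level, with those limits, the order was the same in both libraries for Il12b and Ccl22. Median depths did not follow it in the normal adjacent library, at 15337 UMIs with Xcr1 alone, 18360.0 with both and 16523 with Clec9a alone, and were 15576, 16997 and 12264 in the tumour. Naaa was highest with both transcripts, at 701 and 587 CPM, against 299 and 376 CPM with Xcr1 alone and 349 and 306 CPM with Clec9a alone. Of the 18 and 9 cells with Clec9a alone, 3 and 3 held at least 10 UMIs of plasmacytoid dendritic markers, as given below. Their part in the levels with Clec9a alone was not tested.

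**Figure D3:**
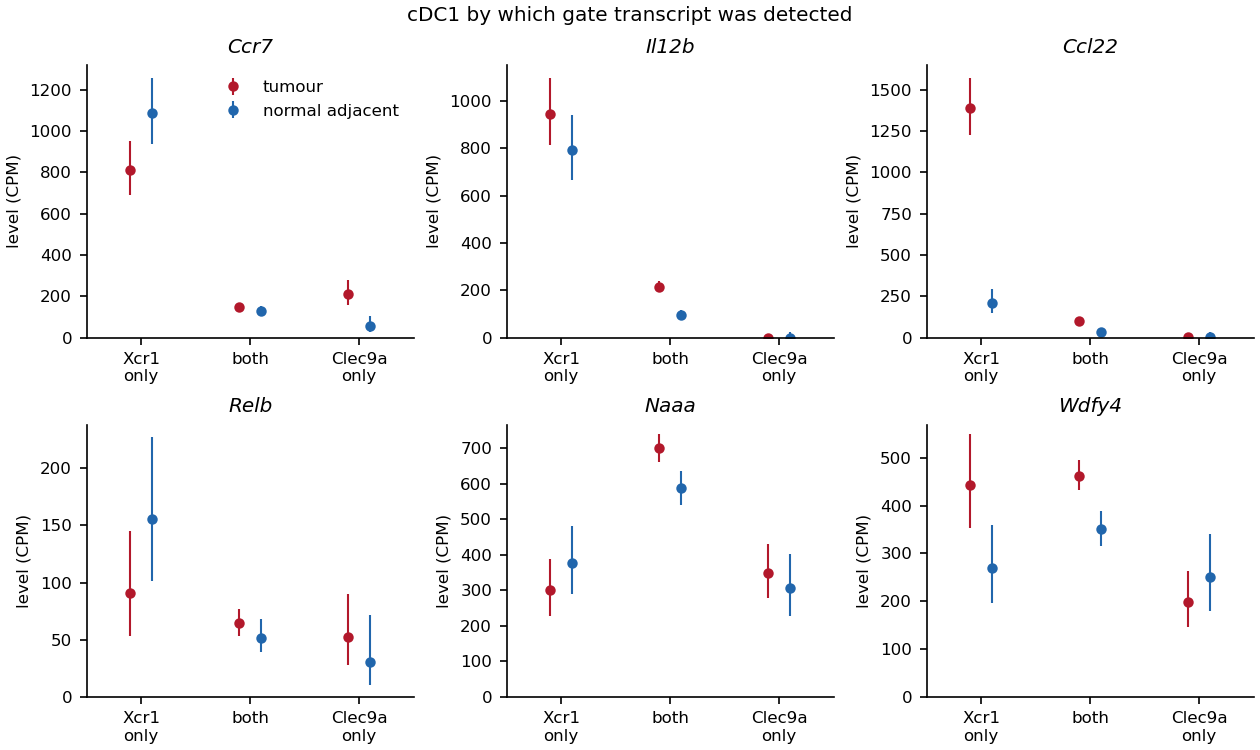
Level (CPM, vertical axes) of 6 genes in cDC1 with Xcr1 only, both gate transcripts or Clec9a only (horizontal axes), in the tumour (red) and normal adjacent (blue) libraries, with exact Poisson 95% intervals for counting error. Il12b and Ccl22 are highest with Xcr1 only and at or near 0 with Clec9a only in both libraries, and Naaa is highest with both. In the normal adjacent library 1 cell holds 132 of the 133 Il12b UMIs with Xcr1 only, which the intervals do not show. The cells with Clec9a only include 3 tumour and 3 normal adjacent cells with at least 10 UMIs of plasmacytoid dendritic markers.

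Some cDC1 were in cycle. At least 2 UMIs of the proliferation genes Mki67 and Top2a were found in 24 tumour cDC1, 18.6% (12.3 to 26.4), and in 10 normal adjacent cDC1, 14.1% (6.97 to 24.4). Their Stmn1, a microtubule regulator of dividing cells that was not used to pick them, was at 669 and 947 CPM, against 49.0 and 60.3 CPM in the other cDC1. They were also deeper, with medians of 19834 and 31749 UMIs, against 15080.0 and 17201 in the other cDC1. Il12b was at 263 CPM in the cycling cells of the tumour and 3.07 CPM in those of normal adjacent tissue. Of 19 cell cycle genes 4 were at least 1.5-fold higher and 1 lower in tumour cDC1, beside 11.4% and 6.94% of all 8035 measured genes. The median log2 ratio over the 19 was 0.07, against 0.02 over all genes.

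By share, cDC1 were somewhat more common in the tumour library. They made up 1.66% (1.39 to 1.97) of its filtered cells and 1.14% (0.894 to 1.44) of those of the normal adjacent library, a difference of 0.517 points (0.122 to 0.906). Of class II-rich cells under the same limits they were 22.1% (18.8 to 25.6) of 585 in the tumour and 15.6% (12.4 to 19.3) of 454 in normal adjacent tissue, a difference of 6.41 points (1.59 to 11.1). The gate is a fixed number of UMIs, and depth differed among class II-rich cells. Those without a gate UMI had a median of 9997 UMIs in the tumour and 5441 in the normal adjacent library. Of cDC1 and Cd209a dendritic cells together cDC1 were 46.4% in the tumour and 44.7% in normal adjacent tissue, a difference of 1.75 points with an interval from -7.93 to 11.3. The last share thus showed no difference at this depth. Cd209a dendritic cells had a higher share in the tumour library too. Of filtered cells they were 1.92% in the tumour and 1.42% in normal adjacent tissue, a difference of 0.501 points (0.0701 to 0.924). Of class II-rich cells they were 25.5% and 19.4%, a difference of 6.09 points (0.947 to 11.1). The rise was thus not particular to cDC1.

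Markers of other cells were present before any gene is compared between the tissues. In the tumour library 14 of 129 cDC1, and in the normal adjacent library 13 of 71, held at least 10 UMIs of neutrophil (7 and 4 cells), T or NK cell (3 and 5), epithelial (1 and 0), fibroblast (2 and 0) or plasmacytoid dendritic (3 and 5) markers. Plasmacytoid dendritic cells also carry Clec9a, and 6 of those 8 cells had no Xcr1 UMI, so these 6 are among the cells with Clec9a alone. The 8 cells held 61.6% of the UMIs of these plasmacytoid markers in tumour cDC1 and 93.4% in normal adjacent cDC1. The markers behind these cells and shares were a different set from the 10 genes of the plasmacytoid list. The 8 macrophage markers summed to 1308 CPM in tumour cDC1 and 664 CPM in normal adjacent cDC1, and 0 of them were at 0 in either. The 8 neutrophil markers summed to 570 and 621 CPM, the 8 T cell markers to 31.7 and 101 CPM, and the 6 fibroblast markers to 192 and 4.43 CPM, with 4 at 0 in the normal adjacent library. Values without the 14 and 13 cells, an alternative added after the data were seen, stand beside the tissue comparisons as the 115 and 58 other cDC1. Their part in the differences beyond those values was not tested.

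The identity of the cells was much alike in both tissues. Of the 23 cDC1 genes 2 were at least 1.5-fold higher in the tumour library, Tlr3 and the sorting nexin Snx22, and 0 lower, where 11.4% of 8035 genes were that much higher and 6.94% lower. The median log2 ratio over the list was 0.11, and 0.02 over all genes. Over the 115 and 58 cells 1 was higher and 1 lower, with a median of 0.15. Irf8 had a ratio of 1.06 (0.973 to 1.16), Batf3 of 1.18 (0.912 to 1.54), Naaa of 1.19 (1.09 to 1.30) and Wdfy4 of 1.32 (1.17 to 1.48), which was 1.28 (1.13 to 1.45) over the 115 and 58 cells. Xcr1 itself was at 248 CPM in the tumour and 179 CPM in normal adjacent cells, and Clec9a at 194 and 167 CPM, values that the gate used. Of 15 genes of MHC class I presentation none was past 1.5-fold either way, and the median was 0.00. H2-D1, a class I heavy chain, was at 0.872 (0.832 to 0.915). Of 11 class II genes 1 was past 1.5-fold higher, the class II master regulator Ciita, with a median of 0.12. Ciita had a ratio of 1.63 (1.15 to 2.37), and of 1.45 (0.995 to 2.14) over the 115 and 58 cells. Oxidative phosphorylation (15 genes, none past 1.5-fold, median 0.01) and hypoxia and glycolysis (15 genes, 1 higher, median -0.01) were as even.

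Among the 12 genes that stood most clearly higher in tumour cDC1, receptors and lipid genes were found beside a secretory gene of the prostate and vesicle glands. Il1r2, a decoy receptor for interleukin 1, was at 177 CPM in the tumour and 50.2 CPM in normal adjacent cDC1, a ratio of 3.53 (2.72 to 4.64). Over the 115 and 58 cells that ratio was 4.78, and in Cd209a dendritic cells it was 1.23 (1.12 to 1.36). Axl, a receptor tyrosine kinase that recognises dead cells, was at 61.2 and 17.7 CPM, a ratio of 3.45 (2.23 to 5.58), which was 2.78 (1.73 to 4.68) over the 115 and 58 cells. In Cd209a dendritic cells Axl had a ratio of 2.17 (1.51 to 3.21). Apoe, a lipid carrier, was at 770.2 and 365 CPM, a ratio of 2.11 (1.91 to 2.34). The Apoe ratio was much the same in Cd209a dendritic cells, at 1.97 (1.79 to 2.18). T cells, which should lack Apoe, had 1399 and 831 CPM, a higher level than in cDC1, at lower median depths of 5316 and 5999.5 UMIs. The part of background RNA in the Apoe level of cDC1 was not tested. The seminal vesicle protein gene Svs2 was at 39.4 and 4.43 CPM, a ratio of 8.91 (3.93 to 24.9), with 556 and 59.3 CPM in T cells, a higher level than in cDC1. Krtcap3 (2.92, and 2.87 over the 115 and 58 cells), Vill (3.81 and 3.52) and the immediate early factor Egr1 (2.34 and 2.15) had intervals above 1 in both, though T cells held Egr1 at 197 and 148 CPM. The lectin Clec4d had a ratio of 2.61, and over the 115 and 58 cells of 2.22 with an interval that included 1 (0.810 to 7.58). For the stress gene Gadd45g (2.29) and the transglutaminase Tgm2 (3.26) the ratios there were 1.01 and 1.39, and for the endocytic genes Dab2 (3.46) and Lrp1 (3.69) they were 2.38 (1.21 to 5.08) and 2.10 (0.986 to 4.98).

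The 12 genes that stood most clearly lower in tumour cDC1 included metabolic and chromatin genes. Txnip, an inhibitor of glucose uptake, was at 34.5 CPM in the tumour and 79.7 CPM in normal adjacent cDC1, a ratio of 0.432, and 0.556 over the 115 and 58 cells. Idh3b, a subunit of the citric acid cycle enzyme isocitrate dehydrogenase, was at 36.7 and 73.1 CPM, a ratio of 0.503 (0.370 to 0.681). It was also low in Cd209a dendritic cells at 0.490 (0.349 to 0.686), in T cells at 34.4 and 76.8 CPM and in migratory dendritic cells at 22.0 and 61.1 CPM. H2afx, the histone variant of the DNA damage response, had a ratio of 0.572, the histone gene Hist1h4i 0.361, the ribosome assembly factor Bop1 0.369 and the pyrophosphatase Ppa2 0.483. Hic1, a transcriptional repressor, had a ratio of 0.529 in cDC1 and 2.11 (0.934 to 5.38) in Cd209a dendritic cells. Ppp1r16b (0.389), Dnajc25 (0.392) and Rab18 (0.529) were the others with Svs4 and Spink1. Ppp1r16b was at 20.4 and 52.4 CPM in cDC1, against 243 and 289 CPM in T cells, and its ratio over the 115 and 58 cells was 0.591 (0.354 to 0.989). Svs4 and Spink1, secretory genes of the male accessory glands, were at 531 and 1295 CPM and at 47.3 and 284 CPM in T cells, above their 8.16 and 25.1 CPM and 19.5 and 45.8 CPM in cDC1.

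**Figure D4:**
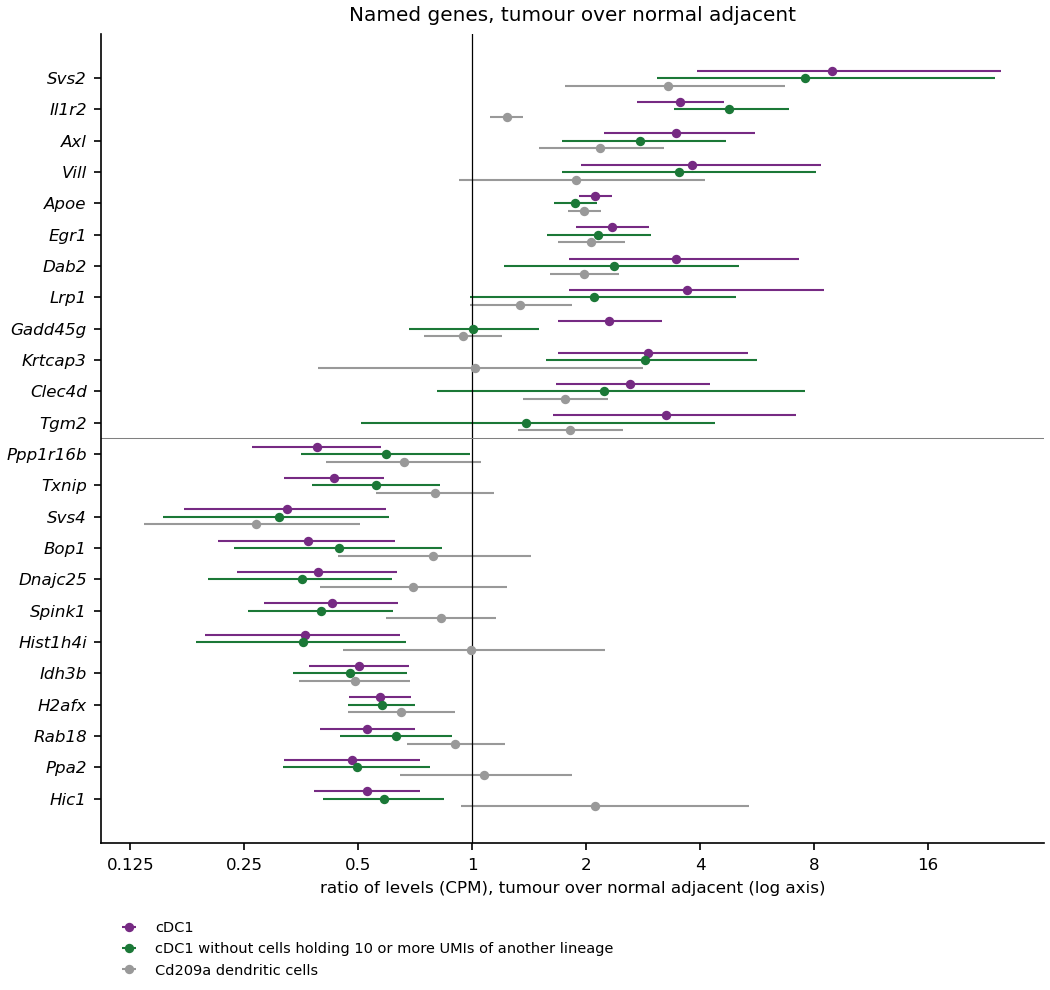
Ratio of levels (CPM), tumour over normal adjacent, on a log axis, for the 12 genes highest (top) and 12 lowest (bottom) by the rule, in all cDC1 (purple), in cDC1 without cells holding 10 or more UMIs of another lineage (green) and in Cd209a dendritic cells (grey). Bars are 95% intervals for counting error. Gadd45g falls to 1.01 in the green set, while Il1r2 is at 4.78 there and at 1.23 in Cd209a dendritic cells.

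Chemokine genes were mostly higher in tumour cDC1. Of 15 measured, 11 were at least 1.5-fold higher and 2 lower, with a median log2 ratio of 0.94, beside 11.4% and 6.94% of all genes. Over the 115 and 58 cells 7 of 14 were higher and 1 lower, with a median of 0.42. In Cd209a dendritic cells 4 of 16 were higher and 4 lower, with a median of 0.09, beside 11.8% and 6.8% of all their genes. Cxcl9, which attracts T cells through Cxcr3, was at 186 CPM in the tumour and 45.8 CPM in normal adjacent cDC1, a ratio of 4.06 (3.10 to 5.39), in 20 and 14 cells. A single tumour cell held 49.0% of its UMIs, and 5 tumour cells 89.8%. Leaving out the UMIs of the 5 cells with most in each library, Cxcl9 was at 19.0 and 17.7 CPM. By the same count Ccl22 was at 54.9 and 14.8 CPM and Ccl17 at 168 and 53.9 CPM. Ccl22, a ligand of Ccr4 on regulatory T cells, was at 196 and 53.9 CPM, a ratio of 3.64 (2.84 to 4.74), in 35 and 20 cells, and 37.2% of its tumour UMIs were in 1 cell. Ccl17, the other Ccr4 ligand, was at 588 and 183 CPM, a ratio of 3.21 (2.80 to 3.69), again in 35 and 23 cells. The shares of cells with Ccl22, 27.1% in the tumour and 28.2% in normal adjacent tissue, and with Ccl17, 27.1% and 32.4%, did not follow the levels, so no difference in the number of producing cells is read. Thinned to 2000 UMIs those shares were 11.1% and 10.0% for Ccl22 and 14.3% and 18.6% for Ccl17, with 0.135% and 0.230% and 0.406% and 0.689% of T cells.

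The exceptions among the chemokines were Cxcl10 and Ccl5. Cxcl10, like Cxcl9 a ligand of Cxcr3, was at 53.5 CPM in tumour and 111 CPM in normal adjacent cDC1, a ratio of 0.483 (0.376 to 0.619), and 1 cell held 76.7% of its normal adjacent UMIs. Its ratio was 0.284 (0.211 to 0.378) over the 115 and 58 cells, and T cells held it at 264 and 198 CPM, above cDC1. Ccl5 was at 93.4 and 189.7 CPM, a ratio of 0.492 (0.408 to 0.594), and at 0.789 (0.594 to 1.05) over the 115 and 58 cells, with 4549.9 and 5622 CPM in T cells. Cxcl16, a chemokine that cDC1 of both tissues held in most cells (115 and 63), was level, at 334 and 321 CPM. Cxcl2, a neutrophil attractant, had a ratio of 1.71 (1.56 to 1.88) and of 1.06 (0.894 to 1.25) over the 115 and 58 cells.

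**Figure D5:**
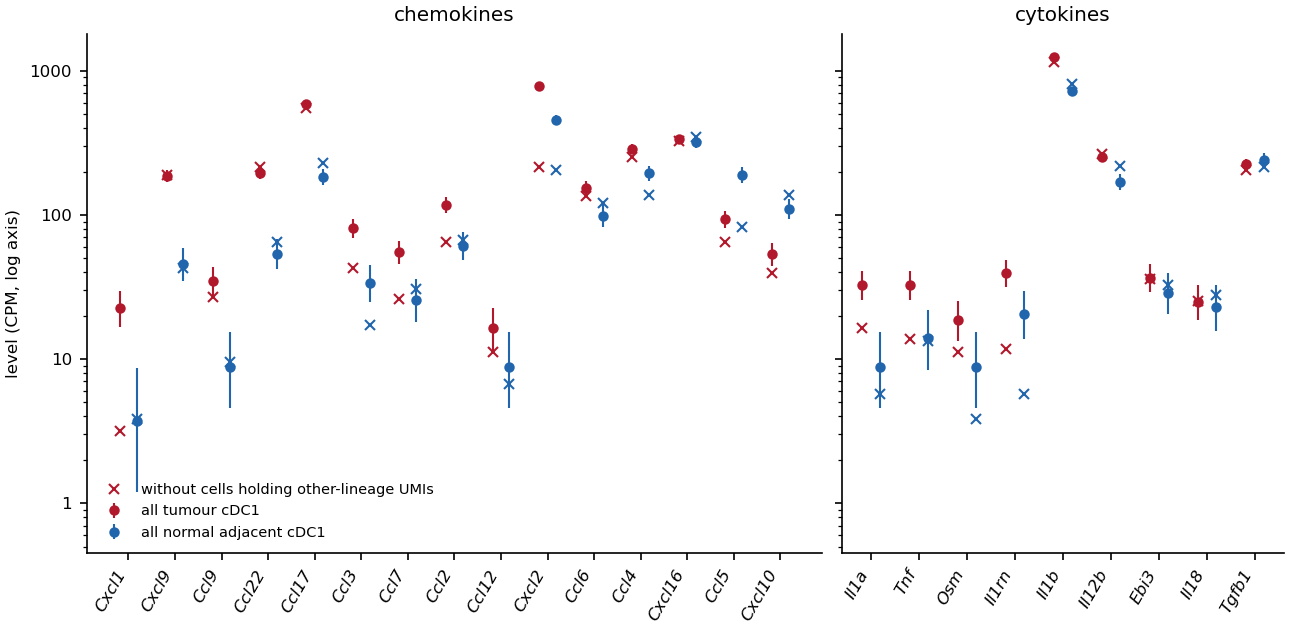
Level (CPM, log axis) of each measured chemokine (left) and cytokine (right) gene in tumour (red) and normal adjacent (blue) cDC1, ordered by ratio, with exact Poisson 95% intervals. Crosses are levels without cells holding 10 or more UMIs of another lineage, in the colour of the library. Cxcl9, Ccl22 and Ccl17 are higher in the tumour library by both, whereas for Cxcl2 the crosses lie at a ratio of 1.06. For Cxcl9 5 cells hold 89.8% of the tumour UMIs, and without the top 5 cells of each library it is at 19.0 and 17.7 CPM.

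Cytokine genes ran the same way with fewer cells. Of 9 measured, 5 were at least 1.5-fold higher in tumour cDC1 and 0 lower, beside 11.4% and 6.94% of all genes. The median log2 ratio was 0.76, and over the 115 and 58 cells 3 were, with a median of 0.27. In Cd209a dendritic cells 1 of 12 was higher and 5 lower, with a median of -0.14, beside 11.8% and 6.8% of all their genes. Il1b was at 1241 CPM in the tumour and 730.0 CPM in normal adjacent cDC1, a ratio of 1.70 (1.58 to 1.83), and 1.42 (1.31 to 1.54) over the 115 and 58 cells. Il12b had a ratio of 1.49 (1.28 to 1.75), and 1.21 (1.03 to 1.42) over the 115 and 58 cells. Tnf had a ratio of 2.33 and, over those cells, of 1.03. Il18, which acts with interleukin 12 on NK and T cells, was level at 24.9 and 22.9 CPM, and Il15 had only 6 and 4 UMIs.

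Sensing, NF-kappaB and costimulatory genes are read against the 11.4% of all genes past 1.5-fold higher and 6.94% lower, and the shares of the last 2 lists were near it. Of 12 pattern sensing genes 7 were past 1.5-fold higher and 0 lower (median 0.61), and 5 over the 115 and 58 cells (median 0.42). Tlr3 had a ratio of 1.55 (1.08 to 2.25), and over the 115 and 58 cells it was at 55.8 and 37.3 CPM, with an interval from 1.03 to 2.22. Tlr12, a sensor of profilin in mice, had 39 and 10 UMIs and a ratio of 2.40 (1.17 to 5.38). Tlr11, its partner, had 17 and 5 UMIs, and its interval included 1. All 13 measured NF-kappaB genes had a ratio above 1, but only 2 were past 1.5-fold (median 0.31), and 11 of 13 were above 1 over the 115 and 58 cells (median 0.21). The survival gene Birc3 was at 66.2 CPM in the tumour and 34.0 CPM in normal adjacent cDC1, a ratio of 1.95 (1.39 to 2.78) that was 2.02 (1.38 to 3.02) over the 115 and 58 cells. Of 11 measured costimulatory and checkpoint genes 2 were past 1.5-fold higher, Cd40 and Tnfsf9, with ratios of 1.56 (1.01 to 2.46) and 1.89 (1.31 to 2.77). Over the 115 and 58 cells Cd40 was at 1.29 (0.817 to 2.09) and Tnfsf9 at 1.70 (1.16 to 2.55). Cd86, the CD28 ligand, had a ratio of 1.27 (1.11 to 1.45), and Cd83 was level at 503 and 496 CPM.

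Interferon genes were mixed, where 11.4% of all genes were past 1.5-fold higher and 6.94% lower. Of 15 type I response genes 6 were past 1.5-fold higher and 0 lower (median 0.20), and 3 of 12 over the 115 and 58 cells (median 0.26), with Isg15 at 165 CPM in tumour and 85.6 CPM in normal adjacent cDC1, a ratio of 1.93 (1.56 to 2.40). T cells held Isg15 at 312 and 302 CPM. Of 10 interferon gamma response genes 2 were higher and 2 lower (median -0.15). Of 16 measured maturation genes 4 were higher and 4 lower (median -0.06). Ccr7, on that list and on the list of receptors, was at 209.9 CPM in the tumour and 239 CPM in normal adjacent cDC1, in 28 and 15 cells. Of 9 chemokine and egress receptors Cxcr3 was past 1.5-fold higher, at 1.73 (1.11 to 2.77), and Ccr9, a plasmacytoid marker as well, lower, at 0.119 (0.0700 to 0.194). Ccr9 was at 0.556 (0.208 to 1.49) over the 115 and 58 cells. Dead cell uptake and lipid genes had 5 of 12 higher and 1 lower (median 0.41), namely Axl, Timd4, Lrp1, Apoe and Lpl, and in Cd209a dendritic cells 5 of 11 higher and 1 lower (median 0.42). Timd4, a phosphatidylserine receptor, was at 61.7 and 39.1 CPM in cDC1, a ratio of 1.58 (1.14 to 2.21), and at 0.591 (0.359 to 0.972) in Cd209a dendritic cells. The cDC2 genes had 11 of 21 past 1.5-fold higher and 1 lower (median 0.68) in tumour cDC1, and 8 of 19 over the 115 and 58 cells (median 0.39). Of the 8 macrophage markers 7 were past 1.5-fold higher (median 0.84), and 4 of 7 over the 115 and 58 cells (median 0.74). The part of RNA from such cells in these lists was not tested.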

How the data were processed

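The 2 deposited matrices of raw UMI counts per gene and barcode came from Cell Ranger 4.0.0 (per the file headers) and hold 92188538 UMIs in 8237 barcodes (tumour) and 77855775 UMIs in 6553 barcodes (normal adjacent). The submitters' processing notes also name R 4.0.3, Seurat 3.2.2 and a human build, while the features are mouse genes. The sources used here give neither the mouse build nor the cell calling settings. Counts were summed over the cells of each set and library and scaled to CPM in Python 3.11.15 (NumPy 2.4.6, SciPy 1.17.1, pandas 2.3.3, matplotlib 3.10.9). Intervals at 95% are exact Poisson for CPM, conditional binomial for ratios, Clopper-Pearson for shares and Newcombe for their differences. The gate, the members and the 34 gene lists were chosen with earlier results of these data known.

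Tissue comparisons took genes with at least 20 UMIs over both libraries and a fold of 1.5, and comparisons with Cd209a dendritic cells at least 20 UMIs per library over both sets and a fold of 2 in both libraries. Log2 ratios had 0.5 UMIs added. Named genes had at least 50 UMIs, a UMI in at least 10 cells and no cell with over 25% of the UMIs in the higher library, were no mitochondrial, ribosomal, haemoglobin, receptor segment, sex-linked or unnamed genes, and were the first 12 each way by the interval bound nearest 1. Beside them stand 2 to 4 or more members of each list, chosen after their values were seen. No doublet caller was run, and cells with markers of another lineage stand in for it. T cells had at least 3 UMIs of Cd3 chains and under 0.5% class II UMIs. Shares of cells were also computed on cells thinned to 2000 UMIs. Ratio intervals were checked on simulated Poisson counts, the kind they are built for, and the gate on a made matrix. That check cannot show how the intervals hold where single cells carry much of a gene's UMIs. Promoter windows are those of RefSeq (GRCm38.p6), and 18 of the 23 cDC1 genes outside the gate had one.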

Additional observations from a re-analysis of the deposited data

Results flagged for a closer look

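For 10 of 322 list or named genes compared, the interval of the tumour over normal adjacent ratio lay wholly on one side of 1 in cDC1 and wholly on the other side in Cd209a dendritic cells. The difference between the 2 sets was not tested, since each rests on 1 library per tissue. Isg15, an interferon-induced ubiquitin-like protein, had a ratio of 1.93 in cDC1 and 0.769 in Cd209a dendritic cells. For the dead cell receptor Timd4 the ratios were 1.58 and 0.591. Of NF-kappaB genes, the inhibitor Nfkbia had 1.34 and 0.920, and the subunit Rel 1.23 and 0.885. The stress factor Atf3 had 1.27 and 0.799. Lower in tumour cDC1 were the AP-1 factor Jun, with ratios of 0.782 and 1.13, the hyaluronan receptor Cd44, with 0.814 and 1.27, and Cd24a, with 0.885 and 1.38. Cst3 (1.07 and 0.962) and the chaperone Hspa8 (1.05 and 0.952) were close to 1 in both sets. Without the 14 and 13 cells holding at least 10 UMIs of another lineage Cst3 was at 1.00 (0.991 to 1.02) and Hspa8 at 1.01 (0.960 to 1.06), so their intervals then included 1.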

How the results depend on the processing

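No paired analysis was possible because each tissue has 1 library. The difference in the cDC1 share of filtered cells kept its sign under all 10 alternatives, from 0.260 to 0.568 points, as did the share of class II-rich cells, from 3.27 to 8.94. The share of cDC1 and Cd209a dendritic cells, 1.75 points, ranged from -0.758 to 12.4 points, the highest with cells thinned to 2000 UMIs before gating. The numbers of genes past the fold (918 higher and 558 lower in the tumour, 272 higher and 351 lower than in Cd209a dendritic cells) followed the number of UMIs. They were 116, 90, 20 and 76 with thinning before gating and 367, 247, 63 and 111 with thinning after it (an alternative chosen after seeing the data), 1990, 1260, 537 and 545 with at least 5 UMIs per gene, and 158, 93, 94 and 167 with at least 100. With a gate of 1 UMI 232 genes were lower than in Cd209a dendritic cells. The median of all genes moved between -0.03 and 0.05.

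Of the 24 genes named between tissues 19 kept their direction under each alternative that gave a value. Tgm2 was at 0 with thinning after gating, Egr1 at -1.16 (log2) with thinning before gating, Dab2 at -0.32 with a gate of 1 UMI, and Lrp1 at -0.20 and H2afx at 0.26 without cells holding 3 UMIs of another lineage. Several list medians turned. The cDC1 list was at -0.27, the adhesion list at -0.27 and class II at -0.22 with thinning before gating. Class II was also at -0.023 with a gate of 1 UMI, -0.044 without cells of 3 other-lineage UMIs, -0.078 with cells weighted equally and -0.086 with thinning after gating. The interferon gamma list was at 0.074 and 0.43 with gates of 1 and 3 UMIs, and at 1.04 without cells of 3 other-lineage UMIs, where heat shock was at 0.040. The receptor list was at 0.13 with a gate of 3 UMIs, 0.20 with C1q under 0.1%, 0.080 without cells of 3 other-lineage UMIs and 0.10 without cycling cells. Thinning after gating put costimulation at -0.077, type I interferon at -0.26 and dead cell uptake at -0.21, and the plasmacytoid median, otherwise at -0.67 or lower, was 0.22 without cells of 10 other-lineage UMIs. Chemokine (0.38 to 1.01), cytokine (0.25 to 0.86), sensing (0.06 to 0.63) and NF-kappaB (0.11 to 0.41) medians stayed above 0 under each alternative that gave a value. Medians within 0.1 of 0, other than the pan-dendritic one, crossed it: maturation ranged from -0.42 to 2.01 with the same sign in 7 of 15 alternatives, transcription factors from -0.52 to 0.16, cell cycle from -0.13 to 0.49, cross-presentation from -0.29 to 0.14, class I from -0.13 to 0.05, hypoxia and glycolysis from -0.07 to 0.15 and oxidative phosphorylation from -0.03 to 0.12. The causes were not tested. Depth limits single genes, since 200 cells hold few UMIs of genes such as Tlr11 or Il15.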
